A study of Homo sapiens with 9 samples.

Results

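The first of the CHAF1B hairpins in a knockdown series was compared with a control hairpin in MCF10A cells, a line of human breast epithelial cells that grows in culture without forming tumours. The comparison takes in 6 of the 9 libraries of the series: 3 from cells with the hairpin labelled shCHAF1B-#1 and 3 from cells with shGFP, a control hairpin against green fluorescent protein, a jellyfish gene product. The remaining 3 libraries carry shCHAF1B-#2. All 3 hairpins were delivered in a lentiviral vector (pLKO.1), puromycin at 2 µg/mL was applied from 24 hours after transduction, and RNA was taken on day 3. Every group was therefore infected and drug-selected, and all grew in one medium: its hormones were EGF at 20 ng/mL, insulin at 10 µg/mL and hydrocortisone at 0.5 mg/mL, and it also held cholera toxin at 100 ng/mL, penicillin-streptomycin and horse serum at 5%. The libraries hold polyadenylated RNA, and the table gives raw counts for 26186 genes, of which 16235 had enough counts to be tested. The question in the series' design is how RNA levels are rearranged once CAF-1 is suppressed. MCF10A is 1 line, and nothing in the labels states that the replicates came from separate cultures, so p-values measure the spread between these libraries, which may be technical.

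CAF-1, chromatin assembly factor 1, binds new histone H3-H4 pairs and deposits them behind the replication fork, where it is held by the sliding clamp PCNA. CHAF1B encodes its middle subunit, CHAF1A the large one and RBBP4 the small one. Loss of CAF-1 in dividing cells is known to slow passage through S phase and to loosen the silencing of genes that belong to other cell states.

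Levels are CPM, a gene's count relative to its library's total, scaled by the trimmed mean of M-values (TMM), and means carry the SD over 3 libraries per group. They are not divided by gene length, so a level is compared only with that of the same gene in another library. A gene is said to have risen or fallen where the quasi-likelihood test of edgeR gave an adjusted p under 0.05 over all genes tested. Totals in the 6 libraries lay between 24758334 and 31819468 counts, and 3 counts in a library correspond to between 0.0962 and 0.122 CPM after the TMM scaling. In bulk RNA, fewer cells of a kind and less RNA per cell cannot be told apart.

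CHAF1B (chromosome 21, 36385378 to 36419015, plus strand, GRCh38) stood at 35.2, 41.0 and 36.8 CPM in shGFP and 2.56, 3.88 and 3.43 CPM with shCHAF1B-1. Every shCHAF1B-1 library lay below every shGFP library, and the log2 fold change was -3.50 (SE 0.133). The cells expressed basal epithelial markers, which do not by themselves identify the line. The basal keratin gene KRT5 averaged 7264 CPM in shGFP, TP63, the regulator of basal epithelial fate, 79.7 CPM and EGFR, the receptor for EGF, 497 CPM. The luminal marker ESR1, the oestrogen receptor, was at 1.04 CPM. In shGFP the basal list summed to between 13251 and 14356 CPM and the luminal list to between 463 and 506 CPM. Of the 12 basal markers 5 rose and 7 fell; of the 9 luminal markers tested 5 rose and 0 fell. On the first principal component of the 6 libraries, which held 74.1% of the variance, the shCHAF1B-1 libraries lay at -38.6, -38.4 and -42.9 and the shGFP libraries at 39.6, 40 and 40.2.

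Replicate 3 of shCHAF1B-1 differed from replicates 1 and 2 in a set of genes that bears on single results. It held 224 genes at 1 CPM or more that stood at least 4-fold above both other shCHAF1B-1 libraries, against 1 such gene for replicate 1 and 0 for replicate 2. Of the 27 B lymphocyte markers in the table, 23 were among the 224. The summed level of those 27 markers was 647 CPM in replicate 3, 8.50 and 8.82 CPM in replicates 1 and 2, and between 5.95 and 7.93 CPM in shGFP. T lymphocyte markers summed to 4.30 CPM in replicate 3 and to no more than 0.366 CPM in the other libraries compared, whereas myeloid markers, at 59.9 CPM, lay between the 59.8 and 60.5 CPM of replicates 1 and 2. Of the 8 B lymphocyte markers that could be tested 6 rose with all libraries and 1 without replicate 3. MS4A1, the B cell antigen CD20, shows the pattern at 0.501, 0.143 and 0.386 CPM in shGFP and 0.122, 0.353 and 105 CPM with shCHAF1B-1; it was no longer called once the library was left out (log2 fold change 6.66 with it and -0.44 without). The 224 genes took 0.18% of the counts of replicate 3. Each gene named below as having risen or fallen was also called without replicate 3 and kept its direction, except where a sentence says otherwise.

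**Figure D1:**
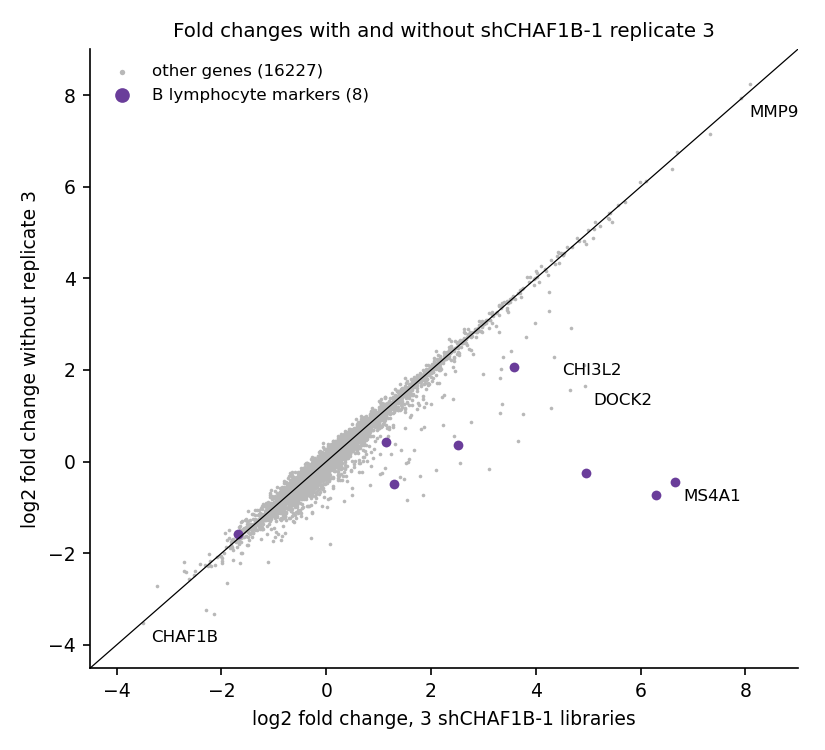
Each point is 1 of the 16235 genes tested, with its log2 fold change from all 3 shCHAF1B-1 libraries (x axis) and without replicate 3 (y axis); purple points are the 8 B lymphocyte markers tested and the line marks equal values. Most genes follow the line, while MS4A1 drops from 6.66 to -0.44 and DOCK2 from 4.94 to 1.64.

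A majority of the genes tested changed in level with shCHAF1B-1. Of the 16235 genes 8632 were called (53.2%): 4536 rose (27.9%) and 4096 fell (25.2%). Rises reached further than falls. The median risen gene went up 1.42-fold (log2 0.50, quartiles 0.30 and 0.93) and the median fallen gene went down 1.33-fold (log2 -0.41, quartiles -0.65 and -0.27). At least 2-fold rises numbered 1030 (6.34%) and at least 2-fold falls 342 (2.11%). When fitted without replicate 3, with 16544 genes tested, they numbered 1013 and 420. The counts by larger fold and by level that follow use all libraries. Past 4-fold, 307 genes rose and 20 fell, and past 8-fold 121 rose and 2 fell. The excess of large rises was found at every level: under 1 CPM 350 genes rose and 137 fell at least 2-fold, from 1 to 10 CPM 391 and 122, from 10 to 100 CPM 229 and 68, and over 100 CPM 60 and 15. All 3 shCHAF1B-1 libraries lay above all 3 shGFP libraries for 5038 genes (31%) and below them for 4725 (29.1%). Without replicate 3, 4142 of the risen and 3557 of the fallen genes were called again in the same direction, 394 and 539 were not, and 0 changed direction.

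**Figure D2:**
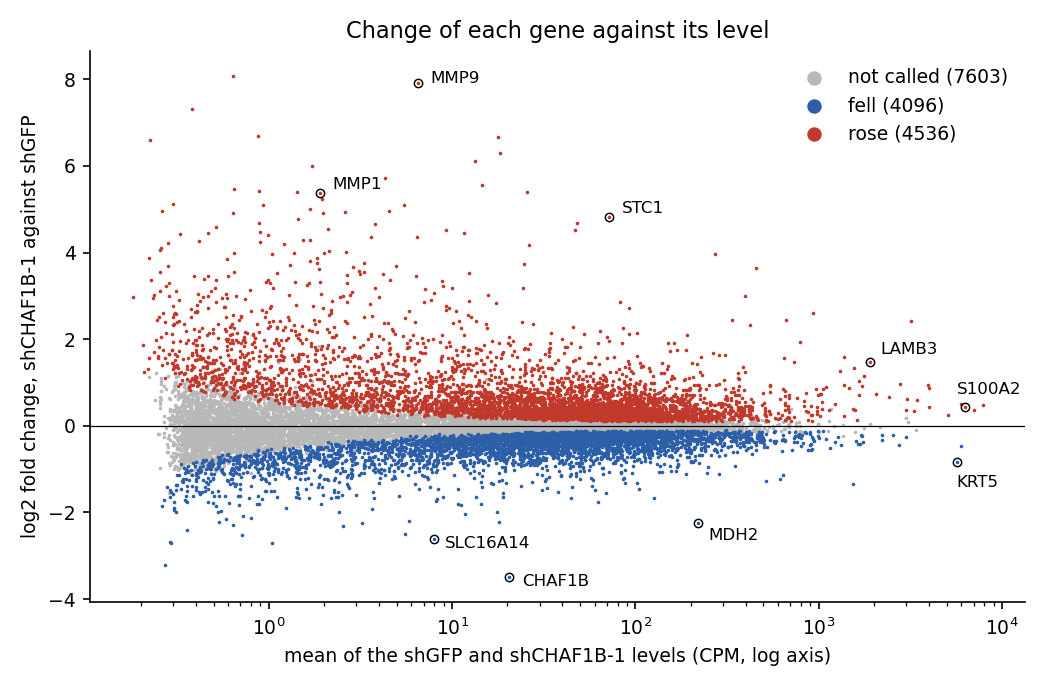
Each point is a gene, placed by the mean of its shGFP and shCHAF1B-1 levels (CPM, log axis) and by its log2 fold change; red genes rose (4536), blue genes fell (4096) and grey genes did not pass (7603). MMP9 lies at 7.92 in the red cloud and CHAF1B at -3.50 in the blue one, which is the narrower of the clouds.

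The steepest rise among protein-coding genes that reached 5 CPM was that of MMP9, which encodes a gelatinase that cuts basement membrane collagen (chromosome 20, 46008908 to 46016561, plus strand). MMP9 stood at 0.0385, 0.0717 and 0.0351 CPM in shGFP and 13.6, 12.7 and 12.4 CPM with shCHAF1B-1 (log2 fold change 7.92, SE 0.185). Its 3 shGFP libraries held 4 counts in all against 1043, a ratio of levels of 265 with a 95% counting interval of 103 to 973, which is wider than the SE conveys. DEPP1, a regulator of autophagy under FOXO control, stood at 0.347, 0.322 and 0.456 CPM in shGFP and 27.0, 26.2 and 25.8 CPM with shCHAF1B-1 (log2 fold change 6.11, SE 0.128). TRPV3, which encodes a heat-sensitive cation channel of skin, stood at 0.116, 0.107 and 0.246 CPM in shGFP and 8.29, 8.17 and 9.03 CPM with shCHAF1B-1. With 13 counts over the shGFP libraries, its ratio of levels was 53.7 (counting interval 31.2 to 101). In each of these genes the groups were far apart and the 3 knockdown libraries close together.

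STC1, a secreted glycoprotein hormone named for its role in fish calcium balance, stood at 4.89, 4.66 and 5.26 CPM in shGFP and 137, 143 and 139 CPM with shCHAF1B-1 (log2 fold change 4.82, SE 0.0594), and ADAM19, a membrane-anchored metalloprotease, at 3.47, 3.58 and 3.61 CPM in shGFP and 92.9, 90.1 and 93.2 CPM with shCHAF1B-1 (log2 fold change 4.69, SE 0.0586). COL6A3, a chain of the microfibrillar collagen VI, stood at 1.12, 1.25 and 1.16 CPM in shGFP and 50.2, 51.9 and 47.8 CPM with shCHAF1B-1 (log2 fold change 5.40, SE 0.0963). The short-chain dehydrogenase gene DHRS2 rose from 0.596 ± 0.131 to 28.5 ± 1.89 CPM (log2 fold change 5.57, SE 0.123), and MCF2L2, a guanine nucleotide exchange factor, from 3.91 ± 0.117 to 89.6 ± 2.97 CPM (log2 fold change 4.52, SE 0.0609). Others are chiefly known from other tissues. MPO, the peroxidase of neutrophil granules, rose from 0.306 ± 0.114 to 10.6 ± 0.599 CPM (log2 fold change 5.10, SE 0.202), SPTB, the beta spectrin of red cells, from 0.327 ± 0.0270 to 6.90 ± 0.811 CPM, CHRNA9, a nicotinic acetylcholine receptor subunit of hair cells, from 1.02 ± 0.132 to 22.3 ± 2.92 CPM, and GSDMA, a pore-forming gasdermin of skin, from 0.770 ± 0.222 to 17.8 ± 0.266 CPM.

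Of the 15 steepest rises called both with and without replicate 3, the size of 3 rested on that library; MS4A1 is outside this set because it was not called without it. DOCK2, a Rac activator of lymphocytes, stood at 0.193, 0.143 and 0.140 CPM in shGFP and 0.407, 0.577 and 14.2 CPM with shCHAF1B-1; its log2 fold change was 4.94 (SE 1.28) and 1.64 (SE 0.403) without that library. BMF, a cell death activator of the BCL2 family, went from 4.66 to 1.57, and CHI3L2, a chitinase-like protein, from 4.35 to 2.29. All 3 genes were still called as risen without the library, and replicates 1 and 2 also lay above every shGFP library. With limma-voom DOCK2 and BMF did not pass (adjusted p = 0.11 and 0.107). The part of B lymphocyte RNA in these values was not tested gene by gene.

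After CHAF1B, the deepest fall among genes that reached 5 CPM belonged to SLC16A14, of the monocarboxylate carrier family, at 12.7, 14.1 and 14.4 CPM in shGFP and 2.60, 2.05 and 2.09 CPM with shCHAF1B-1 (log2 fold change -2.62, SE 0.112). DCN, which encodes decorin, a small proteoglycan that binds collagen and growth factors, stood at 9.17, 9.24 and 9.72 CPM in shGFP and 1.75, 1.83 and 1.38 CPM with shCHAF1B-1 (log2 fold change -2.50, SE 0.126). MDH2, the malate dehydrogenase of the mitochondrial matrix (chromosome 7, 76048051 to 76067508, plus strand), stood at 356, 377 and 349.5 CPM in shGFP and 77.8, 70.7 and 78.6 CPM with shCHAF1B-1 (log2 fold change -2.25, SE 0.0547). The ranges of each of these genes were separated by a wide gap. The homeobox gene NKX1-2 fell from 5.35 ± 0.528 to 1.12 ± 0.211 CPM (-2.24, SE 0.161), ANKRD2, an ankyrin repeat protein of muscle, from 29.6 ± 2.61 to 6.33 ± 0.567 CPM (-2.22, SE 0.100), and SERPINB13, an epithelial serpin, from 9.54 ± 0.975 to 2.08 ± 0.215 CPM (-2.20, SE 0.129). EHF, an Ets factor of epithelia, fell from 28.2 ± 1.67 to 7.11 ± 1.06 CPM (-1.99, SE 0.102), MAPK4, an atypical MAP kinase, from 18.8 ± 0.717 to 4.62 ± 0.466 CPM, and ALDH3A1, an aldehyde dehydrogenase of exposed epithelia, from 22.5 ± 0.963 to 6.41 ± 0.118 CPM. RERG, a Ras-related growth inhibitor, fell by 1.84 on the log2 scale, the scramblase family gene PLSCR4 by 1.81, and the glucosamine-6-phosphate deaminase gene GNPDA1 by 1.75. PRR15L, GRAMD2A and SLITRK5 completed the 15 with log2 fold changes of -1.73, -1.68 and -1.66.

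Measured by the difference in mean CPM, genes of the basement membrane and small S100 proteins were among the largest rises and keratins and translation genes among the largest falls. LAMB3, a chain of laminin-332, the anchor of epithelia to their basement membrane, stood at 1002, 1048 and 959.7 CPM in shGFP and 2936, 2796 and 2635 CPM with shCHAF1B-1 (1.47, SE 0.0538) and LAMA3, another of its chains, at 683, 682 and 699 CPM in shGFP and 2074, 2052 and 2099.9 CPM with shCHAF1B-1 (1.59, SE 0.0463). In both genes the groups lay far apart. S100A6 rose from 2694 ± 176 to 5177 ± 420.4 CPM, S100A2 from 5359 ± 332 to 7291 ± 388 CPM, the metallothionein gene MT2A from 2817 ± 252 to 5152 ± 483 CPM, the calpain protease subunit CAPN2 from 1101 ± 12.8 to 2443 ± 111 CPM and the aminopeptidase ANPEP (CD13) from 880.1 ± 25.8 to 2219.7 ± 49.0 CPM. On the falling side KRT5 stood at 7089, 7636 and 7066 CPM in shGFP and 4278, 4092 and 3876 CPM with shCHAF1B-1 (log2 fold change -0.83, SE 0.0527), and KRT81 fell from 6925 ± 675 to 5009.6 ± 339 CPM and KRT17 from 879.7 ± 80.6 to 399 ± 35.8 CPM. SLC7A5, the light chain of the large neutral amino acid transporter LAT1, fell from 2211 ± 138 to 874 ± 64.1 CPM (-1.34, SE 0.0618). EEF2, the elongation factor of translation, fell from 3166 ± 224 to 2339.8 ± 103 CPM, the ribosomal protein gene RPS6 from 1884 ± 79.2 to 1413 ± 73.5 CPM, the chaperones HSPA8 from 3255 ± 129.8 to 2725 ± 36.5 CPM and HSP90AB1 from 1931 ± 42.2 to 1440.3 ± 10.8 CPM, and the cytoskeletal genes TUBB from 858 ± 26.5 to 367 ± 4.89 CPM and ACTG1 from 2463 ± 114 to 1975 ± 97.6 CPM. Keratins, tubulins, actins, chaperones and ribosomal proteins have near-identical copies or pseudogenes, and their counts carry that uncertainty.

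**Figure D3:**
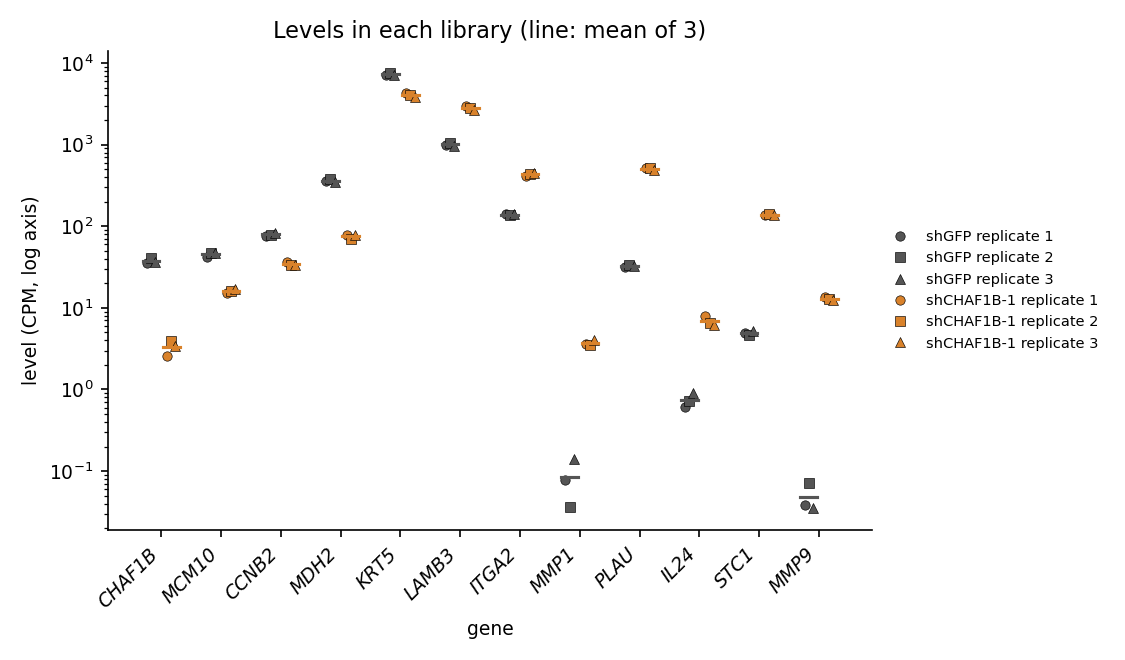
Level of 12 genes in each of the 6 libraries (CPM, log axis); grey symbols are shGFP, orange symbols shCHAF1B-1, the symbol shape gives the replicate and the line the mean of 3. In every gene shown the groups do not overlap, which the naming rule required of some of them. Over all genes tested, the shCHAF1B-1 libraries all lay above the shGFP libraries for 31% and below them for 29.1%. The largest distance is that of MMP9, from 0.0484 to 12.9 CPM.

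Genes of DNA replication fell almost as a block. Of the 56 genes of origin licensing and the replication fork 53 fell, against 25.2% of all genes tested, 0 rose and 3 did not pass, with a median log2 fold change of -0.58; over all genes tested the median was -0.00. MCM10, which helps to fire licensed origins, stood at 42.2, 47.4 and 47.5 CPM in shGFP and 15.4, 16.2 and 17.1 CPM with shCHAF1B-1 (log2 fold change -1.49, SE 0.0664), and FEN1, the nuclease that trims Okazaki fragments, at 79.0, 84.4 and 84.2 CPM in shGFP and 33.9, 35.2 and 34.3 CPM with shCHAF1B-1 (log2 fold change -1.26, SE 0.0560). The licensing inhibitor GMNN fell by 0.92 on the log2 scale, the origin recognition subunit ORC1 by 0.85 and the helicase cofactor CDC45 by 0.82. GINS1, of the GINS helicase complex, fell by 0.90. PCNA, the clamp that recruits CAF-1, stood at 154, 168 and 169 CPM in shGFP and 168, 167 and 163 CPM with shCHAF1B-1 and did not pass; its log2 fold change of 0.02 has a 95% interval of -0.11 to 0.14. POLD2 and ORC4 did not pass either.

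Mitotic genes followed the same course, with 45 of 47 fallen, 0 risen and a median of -0.50. CCNB2, a mitotic cyclin, stood at 76.4, 78.9 and 82.8 CPM in shGFP and 36.3, 33.7 and 33.4 CPM with shCHAF1B-1 (log2 fold change -1.20, SE 0.0546). The survivin gene BIRC5 fell from 117 ± 5.41 to 57.9 ± 0.475 CPM (-1.01, SE 0.0536), the condensin subunit NCAPD2 from 222 ± 6.24 to 114 ± 4.23 CPM, separase, ESPL1, from 51.4 ± 1.4 to 24.9 ± 1.58 CPM, the hyaluronan-binding spindle protein HMMR from 96.8 ± 5.47 to 53.5 ± 1.96 CPM and the anaphase activator CDC20 from 153 ± 7.42 to 86.0 ± 3.05 CPM. NUF2 and CDC25B did not pass. In homologous recombination and the Fanconi pathway 29 of 32 genes fell and 0 rose, at a median of -0.51: BRCA1 fell by 0.86, the nuclease EXO1 by 0.77 and the helicase BLM by 1.04 on the log2 scale.

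Promoter sequences of these genes are shown because 3 short elements known from cell cycle control recur in them. Windows of 300 bases, 250 before and 50 after the annotated start, come from RefSeq on GRCh38.p14 and matched 10076 of the 12696 protein-coding genes tested by symbol. An E2F-type element (letters TTTNNCGC, either strand) was present in 24 of 48 promoters of the replication list (50%), against 10.6% of the 10076 and 6.9% of all 27305 promoters in the table. The cell cycle homology region (CHR, letters TTTGAA, either strand) was present in 28 of 40 mitotic promoters (70%), against 9.59% and 15.4%, and the CCAAT box (letters CCAAT, either strand) in 29 of 40 (72.5%), against 36.6% and 35.7%. These shares belong to the 2 lists and not to fallen genes in general. Among 166 promoters of genes that fell at least 2-fold, E2F was present in 4.82%, CHR in 16.3% and CCAAT in 33.7%. Among 598 that rose at least 2-fold, the shares were 6.52%, 7.53% and 27.4%. The AP-1 element (TGANTCA, either strand), a site of FOS and JUN proteins, was found in 1 of the 48 replication promoters and 0 of the 40 mitotic ones; it was present in 24 of 175 promoters of genes that rose at least 4-fold (13.7%), in 61 of 598 that rose at least 2-fold (10.2%), in 13 of 166 that fell at least 2-fold (7.83%), in 4.83% of the 10076 and in 7.76% of all. The letters of these elements do not overlap in the windows printed. A match is a description of letters and does not show a bound site. Pairs of promoters are printed 5′ to 3′ as examples, chosen for large changes after their values were seen. The first and second pairs belong to fallen members of the replication and mitotic lists that hold the element. The third pair belongs to risen genes at 5 CPM or more that hold an AP-1 element. Only genes with a window could be chosen, and MMP9 and MMP1 had none. Not every gene with a window was eligible, so these are not shown to be the deepest falls or steepest rises. Capitals mark the E2F-type element in the first pair, CHR and CCAAT in the second and AP-1 in the third. Matches to other elements stay in lower case, such as an AP-1 match in GINS1 and an E2F-type match in ESPL1.
GINS1 chr20:25407423-25407722 plus strand: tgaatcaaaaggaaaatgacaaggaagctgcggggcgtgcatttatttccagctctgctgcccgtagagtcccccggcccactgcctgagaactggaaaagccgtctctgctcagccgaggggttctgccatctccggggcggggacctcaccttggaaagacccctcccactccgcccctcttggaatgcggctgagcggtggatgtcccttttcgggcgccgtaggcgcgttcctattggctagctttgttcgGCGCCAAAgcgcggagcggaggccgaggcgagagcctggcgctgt
RFC3 chr13:33817899-33818198 plus strand: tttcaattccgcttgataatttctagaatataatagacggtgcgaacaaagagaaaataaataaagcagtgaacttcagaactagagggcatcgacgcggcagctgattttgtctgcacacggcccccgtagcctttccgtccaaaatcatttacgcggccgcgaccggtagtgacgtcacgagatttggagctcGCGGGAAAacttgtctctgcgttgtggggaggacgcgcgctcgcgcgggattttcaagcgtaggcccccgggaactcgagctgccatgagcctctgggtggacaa
CCNB2 chr15:59104896-59105195 plus strand: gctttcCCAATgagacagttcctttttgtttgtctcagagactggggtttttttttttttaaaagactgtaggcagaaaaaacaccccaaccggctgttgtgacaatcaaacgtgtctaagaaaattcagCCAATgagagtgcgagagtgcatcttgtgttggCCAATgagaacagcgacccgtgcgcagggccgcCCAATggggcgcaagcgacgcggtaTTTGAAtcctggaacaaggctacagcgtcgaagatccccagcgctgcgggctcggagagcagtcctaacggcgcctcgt
ESPL1 chr12:53268049-53268348 plus strand: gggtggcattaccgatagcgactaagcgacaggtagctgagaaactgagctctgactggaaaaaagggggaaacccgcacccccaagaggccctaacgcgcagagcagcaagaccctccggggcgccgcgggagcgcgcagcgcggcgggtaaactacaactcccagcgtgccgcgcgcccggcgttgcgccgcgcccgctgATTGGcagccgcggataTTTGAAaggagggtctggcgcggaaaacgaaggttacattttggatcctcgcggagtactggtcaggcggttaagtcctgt
TRPV3 chr17:3557763-3558062 minus strand: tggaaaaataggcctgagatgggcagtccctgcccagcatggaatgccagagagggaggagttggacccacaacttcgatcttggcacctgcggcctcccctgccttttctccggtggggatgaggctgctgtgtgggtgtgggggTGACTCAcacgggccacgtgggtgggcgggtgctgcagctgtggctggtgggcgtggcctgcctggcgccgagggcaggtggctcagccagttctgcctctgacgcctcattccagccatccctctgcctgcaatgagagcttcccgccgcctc
SPRED3 chr19:38389541-38389840 plus strand: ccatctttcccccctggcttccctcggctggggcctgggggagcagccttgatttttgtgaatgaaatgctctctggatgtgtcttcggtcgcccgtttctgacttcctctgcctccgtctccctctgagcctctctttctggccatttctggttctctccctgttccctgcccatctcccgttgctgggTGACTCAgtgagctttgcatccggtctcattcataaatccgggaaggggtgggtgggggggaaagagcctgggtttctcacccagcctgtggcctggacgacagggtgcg
RFC3, a clamp loader subunit named here for its promoter, fell from 50.4 ± 1.24 to 29 ± 2.85 CPM (-0.80, SE 0.0657), and SPRED3, an inhibitor of RAS-ERK signalling, rose from 1.72 ± 0.220 to 16.2 ± 0.446 CPM (3.23, SE 0.101).

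Among the histone chaperones and CAF-1 partners 17 of 28 fell, CHAF1B included, 2 rose and 9 did not pass (median -0.27). CHAF1A, the large subunit, fell from 51.2 ± 0.913 to 34.7 ± 0.746 CPM (-0.56, SE 0.0477). MCM2, which also carries parental H3-H4 at the fork, fell from 130.2 ± 7.82 to 76.5 ± 1.48 CPM (-0.77, SE 0.0539), MMS22L, of the complex that reads new H4 at damaged forks, from 40.8 ± 1.72 to 20.7 ± 0.628 CPM (-0.98, SE 0.0686), and NASP, a keeper of soluble H3-H4, from 197 ± 12.6 to 130.4 ± 3.70 CPM. The genes that rose were SPTY2D1, an H3-H4 chaperone of transcribed DNA, at 0.36, SE 0.0476, and DAXX, a chaperone of H3.3, at 0.19, SE 0.0557. DAXX was not called once replicate 3 was left out (0.14), nor without shGFP replicate 1 (0.17). ATRX, the partner of DAXX, did not pass at 0.01. Histone genes rose more often than they fell: of 26 tested 13 rose, 6 fell and 7 did not pass, at a median of 0.38. Their shares were 50% and 23.1%, against 27.9% and 25.2% over all genes tested, so the falls were near the general share. HIST1H2AC rose from 19.6 ± 1.29 to 49.6 ± 1.07 CPM (1.34, SE 0.0704), HIST1H2BC from 2.32 ± 0.0864 to 9.85 ± 1.05 CPM (2.09, SE 0.124), HIST1H4H from 1.39 ± 0.168 to 5.83 ± 0.314 CPM and HIST2H2BE from 6.56 ± 0.336 to 17.6 ± 1.85 CPM. Of the variants, H2AFY2, a macroH2A gene named after its values were seen, fell from 17.7 ± 0.333 to 9.90 ± 1.01 CPM (-0.84, SE 0.0909). Since most replication-dependent histone mRNAs carry no poly(A) tail, a polyadenylated library counts only the share that has one. H1F0, the linker histone of arrested cells, rose from 35.3 ± 1.02 to 55.2 ± 1.75 CPM (0.65, SE 0.0608).

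The genes that govern entry into S phase split. Of 28 G1 cyclins, kinases, inhibitors and E2F factors 8 rose, 14 fell and 6 did not pass (median -0.17). The 28.6% that rose was near the 27.9% over all genes tested, and the 50% that fell was above the 25.2%. CDKN1A, the p21 inhibitor, stood at 488, 534 and 480.1 CPM in shGFP and 859.8, 796 and 757 CPM with shCHAF1B-1 (log2 fold change 0.68, SE 0.0589). CDKN2D (p19) rose by 1.19, CDKN1B (p27) by 0.46 and CCND1, cyclin D1, by 0.53 on the log2 scale, while CDK4 fell by 0.53 and CDK2 by 0.52. RB1 did not pass (0.04, 95% interval -0.07 to 0.15). Targets of p53 were mixed as well: 8 of 28 rose and 17 fell (median -0.20), or 28.6% and 60.7%, the rises again near the share over all genes. Beside CDKN1A, the death activator PMAIP1 rose from 14 ± 0.621 to 35.8 ± 2.06 CPM (1.35, SE 0.0669) and TP53INP1 from 25.2 ± 2.39 to 51.4 ± 2.67 CPM, whereas cyclin G1, CCNG1, fell from 393 ± 12.4 to 181 ± 4.84 CPM (-1.12, SE 0.0460), TP53I3 from 98.5 ± 1.49 to 59.5 ± 2.20 CPM and DDB2, a sensor of damaged bases, from 92.1 ± 3.08 to 66.0 ± 1.52 CPM. The BCL2 family held 9 risen and 4 fallen of 18 (median 0.17), or 50% and 22.2%, the falls near the 25.2% over all genes tested. MCL1, a guardian of survival, rose from 1011 ± 8.59 to 1444 ± 55.9 CPM (0.51, SE 0.0444) and BCL2L1, which encodes BCL-XL, from 104 ± 6.47 to 164 ± 8.29 CPM, while the pore former BAX fell from 83.0 ± 4.92 to 54.8 ± 1.54 CPM. BCL2A1 had 0 counts over the shGFP libraries and 37 with shCHAF1B-1, and the lower bound of its ratio of levels from counts alone was 9.68. BCL2 did not pass with all libraries (0.02, SE 0.404) and was called as fallen without replicate 3 (-0.99).

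**Figure D4:**
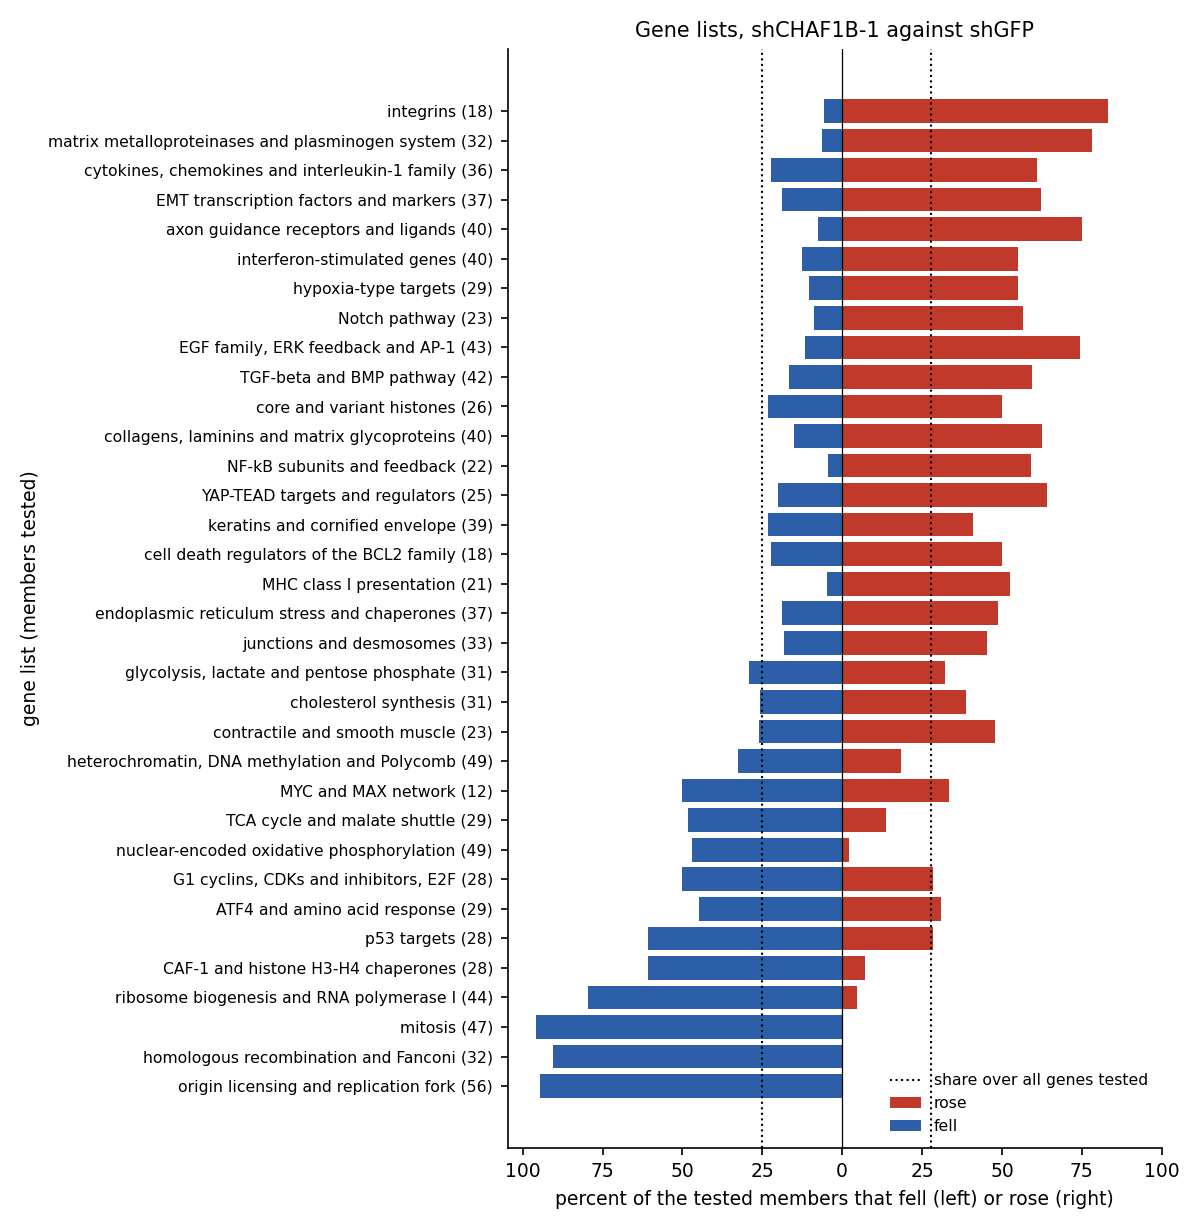
For each of 34 gene lists, the percent of the tested members that fell (blue, left) and rose (red, right), ordered by the median log2 fold change; the number tested is in brackets and dotted lines mark the shares over all genes tested (25.2% and 27.9%). Replication, recombination and mitosis lie at the foot with nearly all members fallen, and integrins and matrix proteases at the head.

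Proteases that remodel matrix rose across classes. On the list of matrix metalloproteinases and the plasminogen system 25 of 32 tested members rose, 2 fell and 5 did not pass, with a median of 0.82. PLAU, the urokinase that turns plasminogen into plasmin, stood at 31.5, 33.6 and 32.6 CPM in shGFP and 518, 512 and 494 CPM with shCHAF1B-1 (log2 fold change 3.96, SE 0.0555). The shCHAF1B-1 libraries lay far above the shGFP libraries. MMP1, the interstitial collagenase, named after its values were seen, stood at 0.0771, 0.0358 and 0.140 CPM in shGFP and 3.58, 3.53 and 4.02 CPM with shCHAF1B-1 (log2 fold change 5.37, SE 0.284), with few counts in shGFP. TIMP1, an inhibitor of metalloproteinases, rose from 329 ± 20.7 to 1251 ± 68.5 CPM (1.93, SE 0.0592), and SERPINE2, protease nexin-1, from 18.7 ± 0.311 to 66.1 ± 4.56 CPM (1.82, SE 0.0626). The fallen members were the sheddases ADAM10 (-0.31, SE 0.0466) and ADAM12 (-0.33, SE 0.0908). Among collagens, laminins and matrix glycoproteins 25 of 40 rose and 6 fell (median 0.36). Beside LAMA3, LAMB3 and COL6A3, the matricellular protein gene SPARC rose from 29.5 ± 1.59 to 114 ± 4.33 CPM (1.95, SE 0.0555); COL8A1, a short-chain collagen, fell from 65.2 ± 0.200 to 24.5 ± 0.328 CPM (-1.41, SE 0.0468). LAMC1, a laminin chain, did not pass (0.07, SE 0.0466).

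Integrins, the receptors that hold cells to this matrix, had a median log2 fold change of 0.97, with 15 of 18 tested members risen and 1 fallen. Without replicate 3 the median was 0.81, with 14 risen and 1 fallen. ITGA5, the fibronectin receptor's alpha chain, stood at 135, 144 and 141 CPM in shGFP and 722, 710.0 and 673 CPM with shCHAF1B-1 (log2 fold change 2.33, SE 0.0482), and ITGA2, which binds collagen and laminin, at 139.5, 137 and 141 CPM in shGFP and 417, 433 and 445 CPM with shCHAF1B-1 (log2 fold change 1.63, SE 0.0618). ITGA3, a laminin-332 receptor chain, rose from 771 ± 44.5 to 1856 ± 109 CPM, the epithelial ITGB6 from 48.8 ± 2.51 to 126 ± 3.22 CPM and ITGB2, the beta chain of leukocyte integrins, from 19.6 ± 1.52 to 85.7 ± 4.99 CPM (2.13, SE 0.0660). The ITGB2 values were 19.1, 21.4 and 18.5 CPM in shGFP and 90.7, 85.7 and 80.8 CPM with shCHAF1B-1, so the rise was present in replicates 1 and 2. ITGA1, a collagen receptor chain, was the fallen member, from 38.9 ± 0.974 to 15.9 ± 0.268 CPM (-1.29, SE 0.0555).

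**Figure D5:**
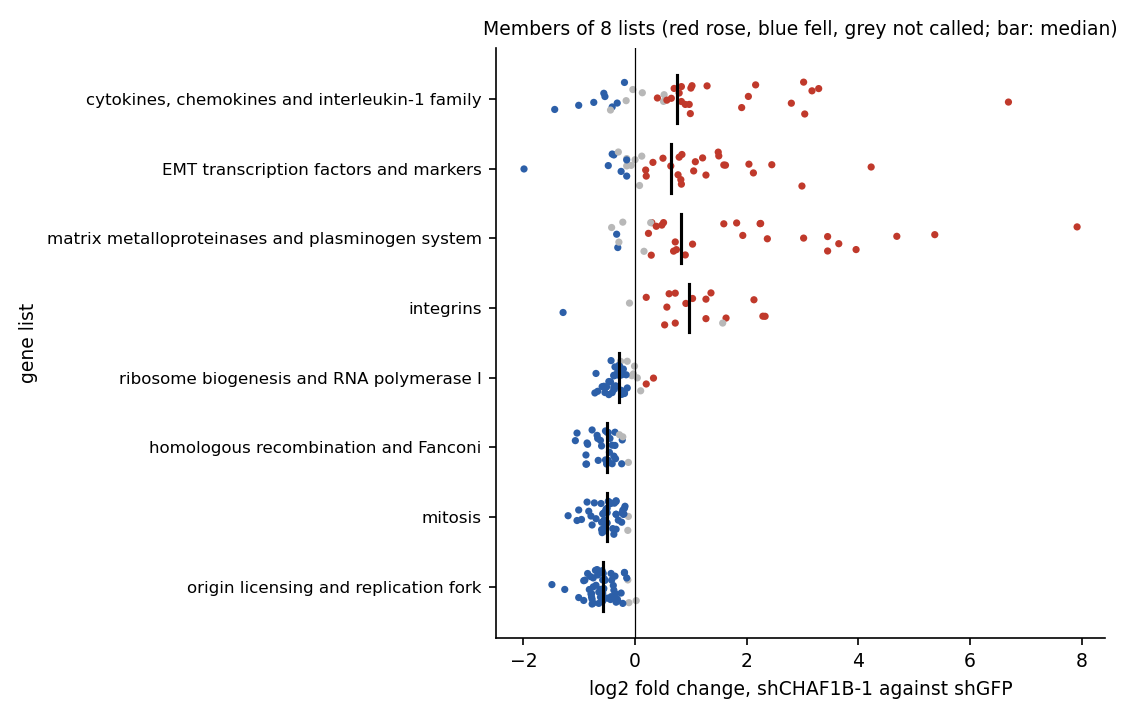
Log2 fold change of every tested member of 8 lists (points spread vertically at random for legibility); red members rose, blue members fell, grey members did not pass and the bar is the list's median. The 4 lower lists lie left of 0, with medians between -0.58 and -0.29, and the 4 upper ones right of it, between 0.64 and 0.97.

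Transcription factors and markers of epithelial-mesenchymal transition (EMT) rose more often than they fell, 23 against 7 of 37 (median 0.64). The list also holds epithelial genes, such as EHF, whose fall is given above. Its count therefore does not give a direction along EMT. NT5E, the ecto-nucleotidase CD73, stood at 86.7, 86.5 and 91.9 CPM in shGFP and 710.3, 707 and 691 CPM with shCHAF1B-1 (log2 fold change 2.99, SE 0.0490) and HMGA2, an architectural chromatin protein of embryonic cells, at 105, 97.8 and 110.1 CPM in shGFP and 573, 577 and 554 CPM with shCHAF1B-1 (log2 fold change 2.45, SE 0.0515). SOX9 rose from 7.98 ± 0.818 to 32.9 ± 1.39 CPM (2.04, SE 0.0787), S100A4 from 48.0 ± 2.37 to 134 ± 8.25 CPM and the hyaluronan receptor CD44 from 457 ± 9.64 to 817 ± 0.991 CPM. The classical factors TWIST1 (0.12, SE 0.102) and TWIST2 (0.00, SE 0.134) did not pass, nor did the epithelial splicing regulators ESRP1 (0.08) and ESRP2 (-0.07). Junction genes went up more often than down, 15 against 6 of 33 with 12 not passing (median 0.13). The gap junction gene GJB2 rose from 19.5 ± 0.149 to 61.9 ± 2.25 CPM (1.67, SE 0.0539), the desmosomal cadherin DSC2 from 57.2 ± 2.60 to 117 ± 3.77 CPM, the tight junction gene CLDN4 from 2.55 ± 0.261 to 8.91 ± 0.851 CPM, and CTNNB1, beta-catenin, from 358 ± 3.18 to 521 ± 22 CPM. CLDN7 did not pass (0.08).

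Keratins and genes of the cornified envelope divided by gene, with 16 risen, 9 fallen and 14 not passing of 39 (median 0.18). Of these 41% rose and 23.1% fell, against 27.9% and 25.2% over all genes tested, so the falls were near the general share. KRT80 rose from 15.6 ± 1.22 to 49.0 ± 3.31 CPM (1.65, SE 0.0688), KRT15 from 141 ± 7.93 to 257 ± 8.63 CPM and S100A9, a subunit of calprotectin, from 40.6 ± 0.767 to 92.3 ± 5.23 CPM, against the falls of KRT5, KRT17 and SERPINB13 given above. SBSN, suprabasin, rose from 14 counts over the shGFP libraries to 330, a ratio of levels of 23.9 (95% counting interval 14.1 to 44.2). KRT6A, a keratin of activated keratinocytes, did not pass (0.05, SE 0.0497). Genes of the contractile and smooth muscle list were likewise split, 11 risen and 6 fallen of 23 (median 0.03, -0.00 with upper-quartile factors and -0.01 without shCHAF1B-1 replicate 1). Their shares were 47.8% risen and 26.1% fallen, the latter again near that over all genes. The actin-binding SYNPO rose from 8.97 ± 0.832 to 46.1 ± 1.06 CPM (2.36, SE 0.0696), SMTN from 70.2 ± 3.37 to 143 ± 3.15 CPM and TPM4 from 263 ± 0.707 to 399 ± 8.56 CPM, while TAGLN, transgelin, fell from 28.1 ± 1.76 to 9.62 ± 0.631 CPM (-1.55, SE 0.0763) and the myosin light chain MYL9 from 10.1 ± 0.162 to 4.43 ± 0.221 CPM (-1.19, SE 0.0922). CAV1 did not pass (-0.00).

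In the TGF-beta and BMP pathway 25 of 42 rose and 7 fell (median 0.39). Of the ligands, INHBA, the activin A subunit, rose from 11.3 ± 1.25 to 34.0 ± 0.684 CPM (1.59, SE 0.0844). The type II receptor TGFBR2 rose from 374 ± 8.86 to 718 ± 8.98 CPM (0.94, SE 0.0413) and its signal carrier SMAD3 from 50 ± 1.17 to 134 ± 3.30 CPM (1.42, SE 0.0440), with SMAD3 at 48.7, 51.0 and 50.4 CPM in shGFP and 137, 131 and 133 CPM with shCHAF1B-1. LTBP2, a latent TGF-beta binding family protein, rose from 102 ± 4.05 to 221 ± 13.0 CPM, and SMURF2 and SKIL, which restrain the pathway, by 0.86 and 0.99 on the log2 scale. ID1, a BMP target, did not pass (0.09, SE 0.147).

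Genes of EGF signalling and its feedback rose on most counts, 32 of 43 with 5 fallen (median 0.42). SPRY4, a feedback inhibitor of the pathway, stood at 86.7, 88.6 and 86.8 CPM in shGFP and 300.0, 294 and 280.1 CPM with shCHAF1B-1 (log2 fold change 1.74, SE 0.0448) and DUSP6, an ERK phosphatase, at 125, 124 and 125 CPM in shGFP and 406, 399.6 and 401 CPM with shCHAF1B-1 (log2 fold change 1.69, SE 0.0503). PHLDA1 rose from 150.1 ± 1.82 to 464 ± 15.8 CPM and EGR1, an immediate early factor, from 83.9 ± 3.91 to 219 ± 1.78 CPM. The fallen members were the ligand EPGN, which fell from 146 ± 5.56 to 57.9 ± 3.78 CPM (-1.33, SE 0.0554), the AP-1 subunit FOSL2 (-0.51, SE 0.0454), SPRY1 (-0.79, SE 0.104), SPRY2 (-0.46, SE 0.0623) and EGFR itself. EGFR stood at 501, 506 and 483 CPM in shGFP and 414, 422 and 448 CPM with shCHAF1B-1 (log2 fold change -0.22, SE 0.0681) and lost its call without shCHAF1B-1 replicate 1 or 2, or without shGFP replicate 1 or 2 (-0.19, -0.20, -0.21 and -0.20). DUSP1 did not pass (-0.13). Regulators and targets of YAP and TEAD held 16 risen and 5 fallen of 25 (median 0.19). Their shares were 64% and 20%, against 27.9% and 25.2% over all genes tested. Beside NT5E, tissue factor, F3, rose from 236 ± 8.02 to 559.5 ± 1.75 CPM (1.25, SE 0.0430), the receptor kinase AXL from 52.2 ± 2.5 to 132 ± 6.56 CPM and WWTR1, which encodes TAZ, from 64.8 ± 1.51 to 119 ± 3.66 CPM. Of the fallen, the DNA-binding partner TEAD1 went from 186 ± 2.24 to 100.0 ± 5.99 CPM (-0.89, SE 0.0654), TEAD4 changed by -0.65, NF2 by -0.37, AJUBA by -0.26 and ANKRD1, with 72 counts in shGFP and 18 with shCHAF1B-1, had a ratio of levels of 0.254 (counting interval 0.142 to 0.43). CYR61, a common readout of YAP, did not pass (-0.10, SE 0.0534).

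Receptors and ligands of axon guidance, which also steer epithelial and vessel cells, rose in 30 of 40 cases and fell in 3 (median 0.58). NRP1, neuropilin-1, stood at 20.3, 20.8 and 18.8 CPM in shGFP and 147, 147 and 137 CPM with shCHAF1B-1 (log2 fold change 2.85, SE 0.0576). The ephrin receptor EPHB2 rose from 3.86 ± 0.439 to 18.4 ± 0.889 CPM (2.26, SE 0.0950), the semaphorins SEMA7A from 2.53 ± 0.391 to 16.6 ± 1.27 CPM and SEMA3B from 5.02 ± 1.29 to 25.7 ± 2.88 CPM, and the plexin PLXND1 from 9.74 ± 0.395 to 24.0 ± 0.569 CPM. The fallen were ROBO1 (-0.50, SE 0.0519), EFNA5 (-0.25, SE 0.0741) and SEMA5A (-0.62, SE 0.226). EFNA5 lost its call without shCHAF1B-1 replicate 2 (-0.22) or 3 (-0.21), and SEMA5A without shCHAF1B-1 replicate 1 (-0.56) or 2 (-0.45) or shGFP replicate 1 (-0.58) or 3 (-0.57). SEMA5A was not called with DESeq2 or with no filter either (adjusted p = 0.089 and 0.0592). NRP2, the other neuropilin, did not pass (-0.04, SE 0.0485). In the Notch pathway 13 of 23 rose and 2 fell (median 0.44). The inhibitor NUMBL rose from 11.8 ± 0.134 to 23.5 ± 0.453 CPM (0.99, SE 0.0689), LFNG, which adds sugars to the receptors, from 3.41 ± 0.570 to 9.63 ± 0.354 CPM, NOTCH2 from 185 ± 7.92 to 286 ± 8.66 CPM and the ligand JAG1 from 55.3 ± 0.624 to 76.0 ± 0.342 CPM. The fallen were the coactivator MAML1 (-0.21, SE 0.0450) and NOTCH1 (-0.33, SE 0.110), the latter not called without shCHAF1B-1 replicate 2 (-0.30) or shGFP replicate 1 (-0.28) or 2 (-0.26), nor with DESeq2 (adjusted p = 0.0542). The target HES1 did not pass (-0.15).

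Cytokine genes had a median of 0.75, with 22 of 36 risen and 8 fallen, or 61.1% and 22.2%. The falls were near the 25.2% over all genes tested. TNFSF15, a TNF family ligand, stood at 3.58, 3.58 and 3.16 CPM in shGFP and 27.2, 29.3 and 27.2 CPM with shCHAF1B-1 (log2 fold change 3.02, SE 0.0807), IL1B at 24.5, 26.8 and 27.4 CPM in shGFP and 101, 98.4 and 96.0 CPM with shCHAF1B-1 (log2 fold change 1.91, SE 0.0553) and IL24 at 0.617, 0.717 and 0.912 CPM in shGFP and 7.85, 6.44 and 6.19 CPM with shCHAF1B-1 (log2 fold change 3.17, SE 0.164). The vessel growth factors VEGFA and VEGFC rose by 1.00 and 1.29, and PDGFB by 3.04 on the log2 scale. CSF2, the gene of GM-CSF, named here after its values were seen, had 1 count over the shGFP libraries and 142 with shCHAF1B-1, a ratio of levels of 144 (95% counting interval 25.5 to 5.73e+03). Of the fallen, the chemokines CXCL1 and CXCL3, likewise named after their values were seen, stood at -1.01 (SE 0.0826) and -1.44 (SE 0.200). CXCL2 did not pass (0.13). Of 22 NF-kB subunits and feedback genes 13 rose and 1 fell (median 0.32). The adhesion receptor ICAM1 rose from 19.7 ± 0.124 to 56.4 ± 0.822 CPM (1.52, SE 0.0521), the deubiquitinase CYLD from 30.3 ± 0.437 to 67.8 ± 2.08 CPM and BIRC3 from 142 ± 12.2 to 275 ± 8.72 CPM; SOD2, the mitochondrial superoxide dismutase, fell from 226 ± 4.28 to 169 ± 9.19 CPM (-0.41, SE 0.0573). NFKB1 (-0.01, SE 0.0404) and NFKBIA (0.04) did not pass.

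Interferon-stimulated genes rose in 22 of 40 cases and fell in 5 (median 0.45). ISG20, an RNA-degrading nuclease, rose from 2.08 ± 0.282 to 8.75 ± 0.549 CPM (2.07, SE 0.133), IRF7 from 3.41 ± 0.423 to 9.79 ± 0.338 CPM, IFIT3 from 12.5 ± 1.06 to 26.4 ± 1.24 CPM and the RNA sensor DDX58 (RIG-I) from 19.1 ± 1.26 to 33.5 ± 1.46 CPM. IFI44L went against them and fell from 11 ± 1.23 to 4.15 ± 0.560 CPM (-1.42, SE 0.117), with TRIM22 (-0.81, SE 0.0722), OAS3 (-0.39, SE 0.0493), HERC6 (-0.48, SE 0.0721) and BST2 (-0.23, SE 0.0592). IFIH1, which encodes the RNA sensor MDA5, did not pass (-0.16). MHC class I genes shifted little: 11 of 21 rose, 1 fell and 0 passed 2-fold (median 0.17). The peptide loader TAPBP rose from 92.1 ± 3.42 to 143 ± 2.76 CPM (0.63, SE 0.0481), HLA-E changed by 0.25 and the transporter TAP2 was the fallen member (-0.24, SE 0.0445).

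Genes known as targets of hypoxia rose in 16 of 29 cases and fell in 3 (median 0.45). After STC1, ANGPTL4, a secreted inhibitor of lipoprotein lipase, stood at 269, 287 and 237 CPM in shGFP and 1781, 1551 and 1462 CPM with shCHAF1B-1 (log2 fold change 2.60, SE 0.0849) and NDRG1 at 61.8, 66.1 and 61.3 CPM in shGFP and 253, 233 and 228 CPM with shCHAF1B-1 (log2 fold change 1.92, SE 0.0520). The clock-linked repressor BHLHE40 rose from 86.0 ± 3.21 to 201 ± 8.44 CPM, and the collagen hydroxylases PLOD2 from 231 ± 8.37 to 499 ± 13.9 CPM and P4HA2 from 51.4 ± 1.21 to 118 ± 3.22 CPM. The fallen were the collagen crosslinker LOX (-0.67, SE 0.0879), MXI1 (-0.41, SE 0.0566) and STC2 (-0.30, SE 0.0425), while ADM (-0.01) and PDK1 (-0.12) did not pass. Glycolysis, lactate and pentose phosphate genes counted 10 risen and 9 fallen of 31 (median 0.08), or 32.3% and 29%, near the 27.9% and 25.2% over all genes tested. The glucose transporters SLC2A3 and SLC2A1 rose from 0.562 ± 0.114 to 4.51 ± 0.0327 CPM and from 102 ± 5.92 to 179.8 ± 10.0 CPM, the hexokinase HK1 fell from 387 ± 11.5 to 281 ± 7.63 CPM, and GAPDH (0.08) and LDHA (-0.03) did not pass.

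Enzymes of the TCA cycle and malate shuttle fell in 14 of 29 cases and rose in 4 (median -0.13). No other member approached MDH2: citrate synthase, CS, fell from 248 ± 8.33 to 175 ± 5.12 CPM (-0.50, SE 0.0438), the aspartate transaminase GOT2 from 249.6 ± 3.86 to 196 ± 4.58 CPM and IDH2 from 17.5 ± 1.06 to 11.9 ± 0.380 CPM. MDH1, the cytosolic isozyme, named for comparison after its values were seen, stood at 245, 255 and 261 CPM in shGFP and 206, 208 and 208 CPM with shCHAF1B-1 (log2 fold change -0.29, SE 0.0509). Those that rose were pyruvate carboxylase, PC (0.57, SE 0.0695), the aspartate-glutamate carrier SLC25A13 (0.30, SE 0.0417), DLST (0.18, SE 0.0430) and IDH3G (0.16, SE 0.0627), the last of which was not called without shCHAF1B-1 replicate 1 (0.12) or 3 (0.17), shGFP replicate 1 (0.12) or 3 (0.14) or shCHAF1B-2 replicate 1 (0.15). IDH3G was not called with upper-quartile factors, no filter, the replicate block or only the groups compared either (adjusted p = 0.0793, 0.0585, 0.0634 and 0.0546). Nuclear genes of oxidative phosphorylation fell in 23 of 49 cases and rose in 1 (median -0.15). NDUFA9, an accessory subunit of complex I, stood at 21.6, 23.4 and 20.5 CPM in shGFP and 14.2, 15.1 and 13.2 CPM with shCHAF1B-1 (log2 fold change -0.62, SE 0.0914), with groups that do not overlap. The risen member was NDUFS1 (0.13, SE 0.0455), which was not called without shCHAF1B-1 replicate 2 (0.11) or shGFP replicate 1 (0.11) or 2 (0.13), nor with upper-quartile factors (adjusted p = 0.059).

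Transcripts of the mitochondrial genome went the opposite way to these nuclear genes: 20 of 29 rose and 1 fell, with a median of 0.53, and 17 rose and 0 fell without replicate 3 (median 0.43). MT-CO2, a cytochrome oxidase subunit, stood at 5096, 4391 and 5349.8 CPM in shGFP and 6458, 6799.6 and 7676 CPM with shCHAF1B-1 (log2 fold change 0.50, SE 0.112), and MT-CYB rose from 2744 ± 368 to 4134 ± 349.7 CPM (0.59, SE 0.132). The mitochondrial share of all counts was 4.53%, 4.86% and 5.4% with shCHAF1B-1 and 3.94%, 3.15% and 4.09% in shGFP. RNA quality was not given in the sources used here, and its part in this share was not tested.

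Cholesterol synthesis showed 12 risen and 8 fallen of 31 (median 0.04, and -0.01 without shGFP replicate 3), or 38.7% and 25.8%, against 27.9% and 25.2% over all genes tested. INSIG1, a sterol sensor partner, rose from 75.3 ± 1.37 to 205 ± 7.73 CPM (1.45, SE 0.0494) and MSMO1 from 218 ± 8.78 to 504 ± 19.7 CPM, while the desaturase FADS2 fell from 248 ± 12.3 to 171 ± 10.2 CPM and SREBF2 did not pass (0.12). The amino acid response list of ATF4 held 9 risen and 13 fallen of 29 (median -0.19), or 31.0% and 44.8%. The rises were near the 27.9% over all genes tested. SLC7A5 stood at 2205, 2353 and 2076 CPM in shGFP and 941, 867 and 813 CPM with shCHAF1B-1 (log2 fold change -1.34, SE 0.0618), and its heavy chain partner SLC3A2 fell from 733 ± 36.0 to 305 ± 18.6 CPM (-1.27, SE 0.0550); PSAT1, of serine synthesis, fell from 166 ± 3.66 to 111 ± 4.32 CPM, and VLDLR rose from 0.732 ± 0.151 to 3.44 ± 0.359 CPM. ATF4 did not pass (0.06). Endoplasmic reticulum stress and chaperone genes held 18 risen and 7 fallen of 37 (median 0.15). All 7 that fell encode heat shock proteins of the cytosol or mitochondria, among them HSPA8 and HSP90AB1 given above. HERPUD1, of the machinery that clears misfolded proteins from the reticulum, rose from 45 ± 0.441 to 84.0 ± 5.02 CPM, EDEM1 from 95.6 ± 2.18 to 159 ± 8.32 CPM, HSPA5, the chaperone BiP, from 521 ± 10.9 to 852 ± 22.7 CPM (0.71, SE 0.0486) and DNAJB9 from 19.0 ± 1.07 to 34.1 ± 1.39 CPM. HSPB1 did not pass (0.00).

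Ribosome biogenesis fell in 35 of 44 cases and rose in 2 (median -0.29), with no member past 2-fold. RRP1 fell from 71.2 ± 3.17 to 43.8 ± 1.96 CPM (-0.70, SE 0.0558), the RNA polymerase I subunit POLR1E from 70.8 ± 1.67 to 47.1 ± 1.07 CPM, the rRNA methylase FBL, fibrillarin, from 197 ± 9.37 to 119.8 ± 6.23 CPM (-0.72, SE 0.0623) and MYBBP1A from 216 ± 10.5 to 136 ± 7.15 CPM. The risen were the polymerase I factors TAF1B (0.33, SE 0.0558) and UBTF (0.20, SE 0.0421). MYC, the chief activator of such genes, stood at 576, 613 and 567 CPM in shGFP and 428, 414 and 413 CPM with shCHAF1B-1 (log2 fold change -0.48, SE 0.0440); on the list of MYC and MAX partners 4 of 12 rose and 6 fell (median -0.11), with the antagonist MNT risen from 20.8 ± 0.207 to 31.6 ± 1.34 CPM and MAX not passing (-0.07). Of this list 33.3% rose and 50% fell, against 27.9% and 25.2% over all genes tested. The other risen members were MYCL, MXD1 and MLXIPL, at 1.44, 0.16 and 0.92. MXD1 lost its call without shCHAF1B-1 replicate 2 (0.16) or 3 (0.16), without shGFP replicate 2 (0.13) or 3 (0.17), and with upper-quartile factors (adjusted p = 0.0647). MLXIPL lost it without shCHAF1B-1 replicate 1 (0.91) or 2 (0.77) or shGFP replicate 1 (0.83) or 2 (0.78), and with the replicate block, DESeq2 and no filter (adjusted p = 0.059, 0.143 and 0.0667).

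Genes of heterochromatin, DNA methylation and Polycomb showed 16 falls, 9 rises and 24 that did not pass of 49 (median -0.01, and 0.02 without shCHAF1B-1 replicate 1 or shGFP replicate 3). The falls made up 32.7% and the rises 18.4%, against 25.2% and 27.9% over all genes tested. CBX1, which encodes HP1 beta, stood at 96.3, 98.3 and 96.8 CPM in shGFP and 44.0, 46.5 and 48.9 CPM with shCHAF1B-1 (log2 fold change -1.06, SE 0.0640). CBX6, a Polycomb chromodomain gene, fell from 36.5 ± 3.22 to 20.6 ± 1.58 CPM (-0.83, SE 0.0775), while the ubiquitin ligase RNF2 rose from 21.6 ± 1.24 to 34.6 ± 0.836 CPM (0.68, SE 0.0664), the de novo methylase DNMT3A from 9.0 ± 0.254 to 15.7 ± 1.28 CPM and the oxygenase TET3 from 47.0 ± 1.6 to 74.1 ± 4.34 CPM. SUZ12 (-0.01, SE 0.0462) and EED (-0.08), core subunits of PRC2, did not pass.

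Markers of other tissues moved at low levels. The few tested are set beside all genes tested, of which 27.9% rose and 25.2% fell. Of 5 endothelial markers tested 3 rose and 0 fell, and the summed level of the endothelial list was between 23.0 and 23.3 CPM with shCHAF1B-1 and between 6.77 and 7.44 CPM in shGFP. The defining markers CDH5 and VWF were not tested. ROBO4 rose from 2.70 ± 0.70 to 11 ± 0.409 CPM (2.03, SE 0.146) and PECAM1, CD31, from 2.36 ± 0.543 to 8.93 ± 0.876 CPM (1.91, SE 0.148). Of 5 myeloid markers tested 4 rose with all libraries and 3 without replicate 3. The summed level of the list was between 59.8 and 60.5 CPM with shCHAF1B-1 and between 31.2 and 35.3 CPM in shGFP. CD14 rose from 13.4 ± 1.04 to 24.7 ± 2.26 CPM (0.88, SE 0.0839), while CD68 and SPI1 were not tested. The part of such cells in these sums was not tested. Of the 4 neuronal markers tested 2 rose and 1 fell, and of the 3 fibroblast markers 2 rose and 1, DCN, fell. T lymphocyte, erythroid and platelet markers gave no gene with enough counts to test.

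By gene class, 32.6% of protein-coding genes rose and 28.6% fell, against 21.6% and 16.3% of 547 long intergenic noncoding RNAs and 12.4% and 15% of 815 antisense genes. Of 1285 processed pseudogenes 3.89% rose and 11.1% fell. Among noncoding genes at 1 CPM or more, LINC01647 had 4 counts over the shGFP libraries and 145 with shCHAF1B-1 (ratio of levels 36.8, 95% counting interval 14.1 to 137), and LINC01940 8 and 263 (ratio 33.4, interval 16.7 to 78.1). LINC00973 had a ratio of 20 (interval 11.2 to 39.2) and LINC01605 of 8.98 (interval 5.05 to 17.4), and MANCR stood at 0.501, 0.430 and 0.421 CPM in shGFP and 5.89, 6.64 and 5.84 CPM with shCHAF1B-1 (log2 fold change 3.76, SE 0.183). The largest falls were LINC02015, which fell from 5.80 ± 0.254 to 1.52 ± 0.132 CPM (-1.92, SE 0.126), LINC02043, with a ratio of 0.277 (interval 0.168 to 0.439), and LINC01133 (-1.50, SE 0.231). FAM198B-AS1 fell from 15.8 ± 1.08 to 5.73 ± 0.610 CPM, but the library kit does not mark strand, so its reads cannot be told apart from those of the gene it overlaps.

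Whether a change belonged to the first hairpin alone was tested directly against the second. Of 16235 genes 0 differed between shCHAF1B-2 and shCHAF1B-1 at an adjusted p under 0.05 (0%) with edgeR, and 0 of 16544 (0%) without replicate 3; DESeq2 and limma-voom also called 0. At an unadjusted p under 0.05, 1800 genes (11.1%) differed with edgeR, 1238 with DESeq2 and 1705 with limma-voom. For 8232 of the 8632 called genes (95.4%) the 95% interval of the difference lay within a log2 value of 1 in either direction. That bound is wider than the median change of a called gene, 0.50 for rises and -0.41 for falls. For changes of such size it therefore does not show that the hairpins agreed. Both comparisons use the same shGFP libraries, so their values are set side by side only. MMP9 had a log2 fold change of 7.92 with the first hairpin and 7.63 with the second, LAMB3 1.47 and 1.36, PLAU 3.96 and 3.83, MCM10 -1.49 and -1.42, MDH2 -2.25 and -2.31, and SLC7A5 -1.34 and -1.38. DOCK2 had 4.94 and 1.76, and without replicate 3 the first hairpin gave 1.64. GSDMA rose by 4.51 and 4.07, a difference of -0.44 (95% interval -0.64 to -0.25), and ADAM19 by 4.69 and 4.47, a difference of -0.22 (-0.31 to -0.13); neither passed after adjustment.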

How the data were processed

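Raw gene counts of 9 polyadenylated RNA libraries were used as the authors deposited them. STAR 2.5.3a, HTSeq 0.8.0 and DESeq2 1.18.1 appear in the submitters' processing notes beside 2 builds, mm10 and hg38, whose roles are not stated. The count settings are not given in the sources used here. The library kit (TruSeq v2, per the labels' protocols) does not mark strand. Names and positions came from GENCODE 29 on GRCh38, which matched 26149 of 26186 identifiers.

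Counts were normalised with TMM, filtered with filterByExpr (minimum count 10, total 15, share 0.7) and fitted with edgeR 4.0.16 in R 4.3.3, 1 term per group over all 9 libraries. P-values were adjusted by the Benjamini-Hochberg method over the 16235 genes tested. The common biological coefficient of variation was 6.24%. SEs were derived from the log2 fold change and its F value, and intervals are 95%. Counting intervals are exact and, like the limit of 3 counts, cover counting error only; reads carry no molecular identifiers. The code was tested on simulated counts. Groups came from the labels, and the libraries of 1 group differed by more than sampling noise. Alternatives were other scalings, DESeq2 1.42.0, limma-voom (limma 3.58.1), other filters, a replicate block, only the groups compared, a stricter threshold and leaving out each library.

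The members and the 34 gene lists were chosen with earlier results of these data known, so a list's direction is not independent evidence. The text names, by rule, CHAF1B, the 15 rises and 15 falls of largest log2 fold change among protein-coding genes at 5 CPM or more in the higher group, the 10 of each with the largest difference in CPM, and 5 noncoding genes of each at 1 CPM or more; all had to be called with and without shCHAF1B-1 replicate 3 and have groups that do not overlap. From each list it names up to 6 called members with the smallest p, all members of a count of 5 or fewer, and central members that did not pass. Clone identifiers were passed over. Some genes that the rule picks are not reported here.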

Additional observations from a re-analysis of the deposited data

How the results depend on the processing

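The number of genes called between shCHAF1B-1 and shGFP, 8632, was 8627 with RLE factors, 8677 with upper-quartile factors, 7850 with DESeq2, 8611 with limma-voom, 8614 with no filter, 8224 at 1 CPM or more in 3 libraries, 8740 with only the groups compared and 6738 at an adjusted p under 0.01. Leaving out each of the 9 libraries in turn gave between 7668 and 9042. The 1372 changes of at least 2-fold were 1943 with no filter, 962 at 1 CPM or more in 3 libraries, and between 1403 and 1487 without 1 library. Between the hairpins these alternatives called 0 genes. Of 4817 values for the 284 named genes over the alternatives, 4763 kept their call and direction, 54 lost the call and 0 reversed. Of 578 list medians 536 moved by less than the spread between replicates and 42 by more. The median over all genes stayed within 0.03 of 0 on the log2 scale. Replicate numbers are not said to mark a shared culture. Same-numbered shCHAF1B-1 and shGFP libraries deviated from their group means with correlations of -0.00246, -0.0834 and 0.1. With 3 libraries per group, these values cannot tell whether same-numbered libraries shared a culture or day. Not every library correlated best with its own number. With the replicate block 8305 genes were called, 4378 of them higher and 3927 lower. Depth limits genes such as MMP1, whose few counts leave wide intervals, and the 9951 of 26186 genes that were not tested.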
